A study of Caenorhabditis elegans with 4 samples.

Results

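The regions described here are the NHR-28 ChIP-seq peaks of chromosome IV that lie outside 2 broad piRNA gene domains, mapped in L1 larvae of the nematode Caenorhabditis elegans (whole hermaphrodites). They were chosen by position in the series-wide peak list on build WS220. A peak on IV was kept when its midpoint lay neither between 4500001 and 7000000 nor between 13500001 and 17200000. This gave 586 of the 1135 peaks on IV and of the 5338 peaks in the whole list. The 2 ChIP samples and the 2 input samples came from strain OP317, which has the allele unc119(ed3) and the transgene wgIs317(nhr-28::TY1 EGFP FLAG;unc119). All 4 samples carried both, and none lacked the tag. The transgene had been introduced by bombardment, and its expression is described in the labels as following that of nhr-28. Growth was at 20 °C per the protocol, while the stage label also has the unexplained suffix 26 dC. The GFP-tagged protein was precipitated with antibodies against GFP. Each ChIP sample has a peak list of its own, the series-wide list covers the experiment as a whole, and the input values were not analysed here.

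NHR-28 belongs to the nuclear hormone receptors, transcription factors with a zinc-finger DNA-binding domain and a ligand-binding domain, a family that is greatly expanded in nematodes. The autosomes of this worm have gene-dense central parts and arms that recombine more often and carry more repeats. piRNAs, also called 21U-RNAs in this species, are small RNAs that guide a Piwi protein to foreign or repeated sequences in the germline. Most of their genes are short separate transcription units that share an upstream motif. In the RefSeq gene table of assembly WBcel235, 14714 of 15363 piRNA genes (95.8%) were on chromosome IV. That assembly is not the build of the peaks, so the limits of the domains were not checked against those genes. No gene or sequence is named for a peak, for the same reason.

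The authors' peak caller gave every peak its limits and 1 significance value of 0.001 or less, and a smaller value marks a stronger peak. Strength is given below as −log10 of that value. Replicate 1 held 806 peaks and replicate 2 held 803. Of these, 79 in replicate 1 and 80 in replicate 2 had their midpoint in the same parts of IV. The lists hold no read counts, and the depth behind a peak is unknown. The labels do not say whether the replicates were separate cultures, and peaks of the same libraries are not replicates of one another. Shares therefore carry exact (Clopper-Pearson) 95% intervals for counting error only, and differences between parts of the genome were not tested.

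The 586 peaks lay at 51.9 per Mb, against 88.5 per Mb inside the piRNA domains. On the other chromosomes the density ran from 10.5 per Mb on X to 80.5 per Mb on III, with 49.7 on V, 58.5 on II and 64.8 on I. The rule leaves 3 stretches of IV. The left one, up to 4500000, held 256 peaks (56.9 per Mb), the middle one, from 7000001 to 13500000, held 301 (46.3 per Mb), and the right tip, from 17200001 to the last peak end at 17492308, held 29 (99.2 per Mb). In the series-wide list the right tip was thus about as dense as the piRNA domain beside it, which held 97.8 peaks per Mb. In the replicate lists it was less dense than that domain. Each replicate list had 6.84 peaks per Mb at the tip, from 2 peaks. In the domain, replicate 1 had 12.7 per Mb and replicate 2 had 16.8.

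Density differed across some edges of the domains more than across others. In the 500 kb outside the left edge of the second domain there were 46.0 peaks per Mb, and in the 500 kb inside it 106 per Mb. At the left edge of the first domain the values were 44.0 outside and 70.0 inside. At the right edge of the first domain, both sides had 50.0. At the right edge of the second domain there were 99.2 outside, over the shorter distance to the last peak end, and 94.0 inside. The members nearest to the 4 edges lay 1912.5 to 13017.5 bp from them, and the nearest peaks on the domain side lay 2614.5 to 13833.5 bp away. None of these 8 peaks overlapped a replicate peak, beside 78.0% of all series-wide peaks that overlapped neither list. The values of the 4 members nearest the edges ran from 3.62e-06 to 0.000993, and those of the 4 domain peaks from 3.04e-06 to 0.000162.

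Within the stretches, the 10 complete 1 Mb bins held between 34 and 70 peaks, with a median of 53.5. The bin with most peaks was the first of the chromosome, with 70. In it 14 peaks overlapped at least 1 replicate list, beside 22.0% of all series-wide peaks. None of the 70 overlapped both lists, beside 4.5% of all. The bin with fewest, from 12000001 to 13000000, held 34. Peaks overlapped by both replicates were found in 6 of the 10 bins, with 5 each in the bins starting at 2000001 and 11000001 and 4 in the one starting at 9000001. The bin starting at 9000001 also had the highest median strength, 4.29, and 14 peaks with a value under 1e-06. The widest gaps between neighbouring peaks were 183210 bp (9882299 to 10065508), 144480 bp (3874965 to 4019444) and 136429 bp (7890040 to 8026468).

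Most of the peaks were narrow. Their median width was 176 bp (quartiles 91 and 313), against 152 bp in the piRNA domains and 164 bp over all series-wide peaks. They covered 133831 bp in all. Widths ran from 2 bp, in 5 peaks, to 2897 bp. In 47 peaks (8.02%) the width was over 500 bp, against 4.19% of peaks in the piRNA domains and 7.57% of all peaks. It was under 50 bp in 83 of the 586, against 96 of 549 in the piRNA domains and 953 of all 5338. Median strength was 3.83 (quartiles 3.37 and 4.82), against 3.86 in the piRNA domains and 3.97 over all peaks. A value under 1e-06 was listed for 70 of the 586 (11.9%), against 10.4% in the piRNA domains and 14.9% of all peaks.

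The strongest members stood well apart from the median one. The whole list was cut by significance into 10 parts of 533 or 534 peaks. The first part, with the strongest, held 56 members (9.56% of them). It also held 30 peaks of the piRNA domains (5.46% of those) and 10.7% of the peaks on the other chromosomes. Of the 10 most significant series-wide peaks 2 were members, and of the first 100 there were 9. Wider members were the stronger ones: across the 586 peaks Spearman's rho between width and strength was 0.57, against 0.45 across the 549 piRNA domain peaks. It was 0.52 across the other chromosomes, 0.51 across all series-wide peaks and 0.59 on chromosome III. These are descriptions across peaks, whose width and value come from the same reads.

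**Figure D1:**
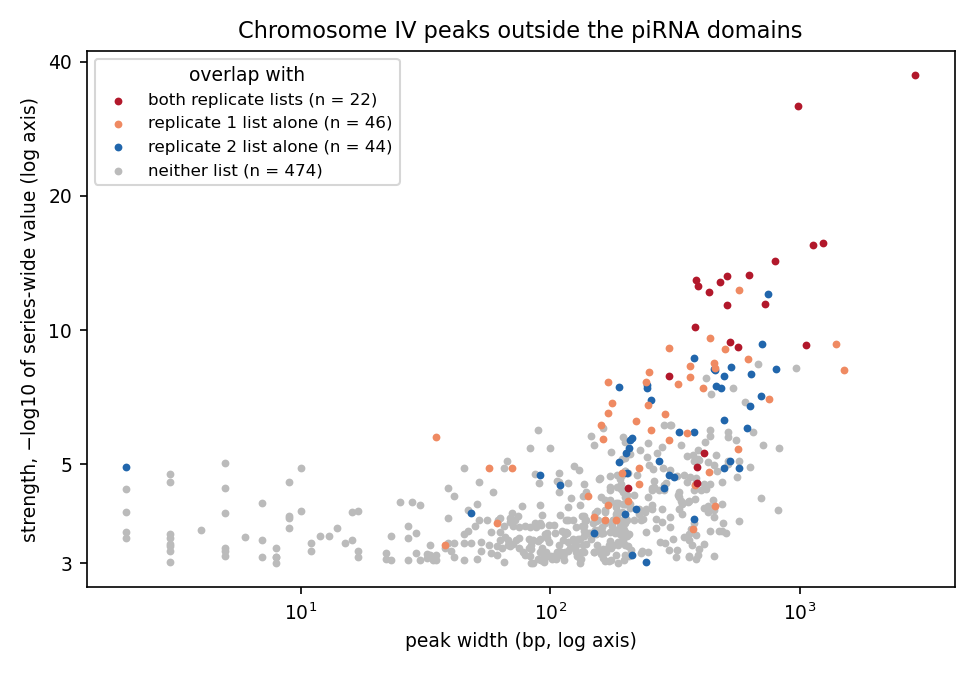
Width (bp) and strength (−log10 of the series-wide value) of the 586 peaks, both on log axes, with 1 point per peak coloured by the replicate lists it overlaps by at least 1 bp. The 22 peaks found in both lists were all at least 204 bp wide, and 79 of the 83 peaks under 50 bp were in neither list.

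The peaks were then compared with the list of each ChIP sample, to ask how many regions were also listed in a single library. Of the 586, 68 shared at least 1 bp with a peak of replicate 1, or 11.6% (exact 95% interval 9.12 to 14.5), beside 13.9% of all series-wide peaks. A replicate 2 peak was overlapped by 66, or 11.3% (8.82 to 14.1), beside 12.6% of all. Both lists were overlapped by 22 members, or 3.75% (2.37 to 5.63), beside 4.5% of all. Each of these background shares lies inside the members' interval. In the piRNA domains the 3 shares were 10.9%, 12.2% and 1.82% (10 of 549, interval 0.877 to 3.32). Of the remaining members, 46 (7.85%) overlapped replicate 1 alone, 44 (7.51%) replicate 2 alone, and 474 (80.9%, interval 77.5 to 84.0) neither, beside 9.40%, 8.13% and 78.0% of all series-wide peaks. Only 79 replicate 1 peaks and 80 replicate 2 peaks lay in these stretches, which limits how large the overlapped shares could be.

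By stretch, both lists were overlapped by 9 of the 256 peaks on the left, 12 of the 301 in the middle and 1 of the 29 at the right tip. Replicate 1 alone was overlapped by 26 peaks on the left and 20 in the middle, and replicate 2 alone by 18 on the left and 25 in the middle. At the right tip 27 of the 29 peaks were in neither list (93.1%, exact interval 77.2 to 99.2), an interval that holds the 78.0% over all peaks.

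Strength and replicate support, meaning overlap with a replicate list, went together. The lists come from the same experiment, so this overlap is not independent evidence for a peak. All of the 20 most significant members overlapped at least 1 replicate peak, and 15 of them overlapped both. Among the first 100 these numbers were 71 and 18. In the first of the 10 parts of the whole list 51 of 56 members (91.1%) had support from a replicate list, beside 87.6% of all peaks in that part. In the second part it was 20 of 46 members (43.5%, exact interval 28.9 to 58.9), beside 52.4% of all. In the last 4 parts it was 6 of 255 members (2.35%), beside 2.53% of all. Of the 70 members with a value under 1e-06, 60 had such support and 10 had none. In the piRNA domains 14 of 57 peaks under that value had none, and on the other chromosomes 153 of 667. Median strength was 11.8 for the 22 members in both lists, 6.05 for those in replicate 1 alone, 5.71 for those in replicate 2 alone and 3.64 for those in neither. Their median widths in the same order were 509, 250.5, 306.5 and 153.5 bp. On the other chromosomes the median strengths in this order were 10.99, 6.03, 5.42 and 3.71. Median widths there were 489, 277.5, 199 and 139 bp. In the piRNA domains the median strengths were 9.63, 5.01, 5.42 and 3.64, and the median widths 445, 252, 237 and 127.5 bp. Greater strength and width with support from both lists was thus not particular to the members.

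**Figure D2:**
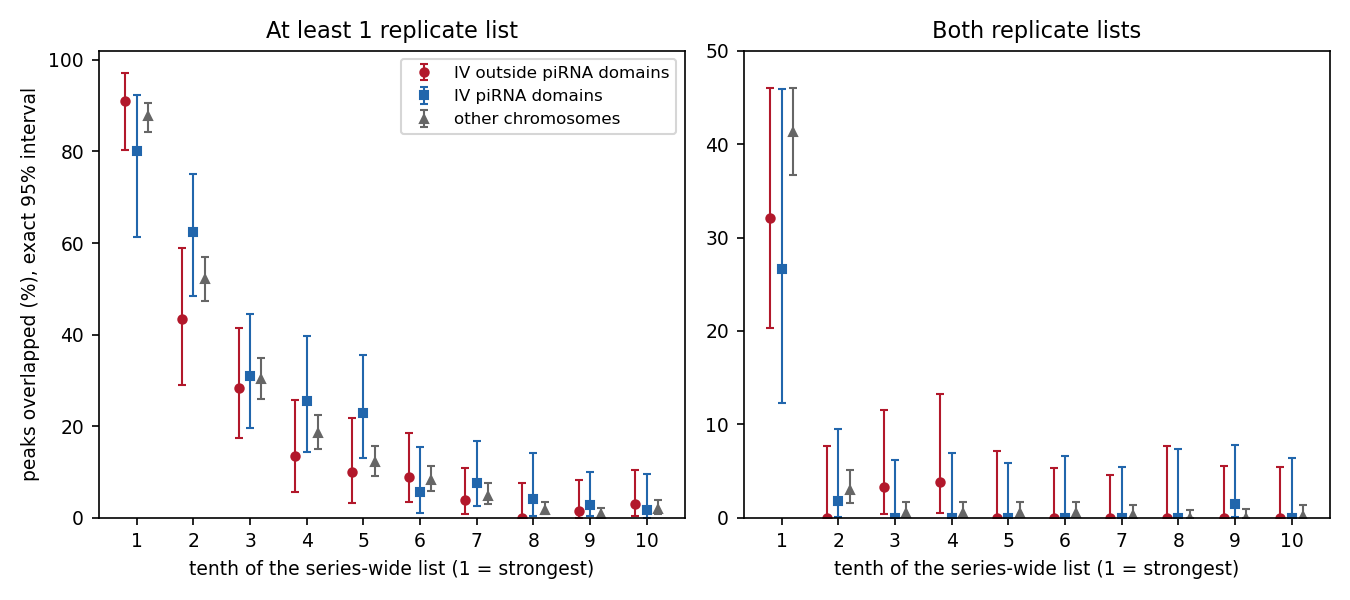
Share of peaks (%) that overlap at least 1 replicate list (left) and both lists (right), by part of the series-wide list (10 parts, from the strongest to the weakest), for the 586 members, the 549 peaks of the piRNA domains and the 4203 peaks of the other chromosomes; bars are exact 95% intervals. In the first part 32.1% of members, 26.7% of piRNA domain peaks and 41.3% of the other peaks were in both lists, with overlapping intervals.

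The strongest member was also the widest, at IV:9053859-9056755, with a value of 4.90e-38 (rank 3 of the whole list). In replicate 1 a single peak of 683 bp lay inside it (7.96e-09, rank 49). In replicate 2 it was met by 4 separate peaks, the most significant of them 379 bp wide at the right end (1.30e-07, rank 43). The 3 others of replicate 2 had values of 0.000147, 3.40e-06 and 0.000224. One broad series-wide region was therefore listed as several narrow ones, or as only a part, in the single libraries.

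The second member was a single peak in all 3 lists, shorter in replicate 2 (734 bp) than in replicate 1 (947 bp) and the series-wide list (985 bp). It lay at IV:2601939-2602923 with a value of 1.29e-32 (rank 5). Replicate 1 listed 2601963 to 2602909 (2.84e-17, rank 7) and replicate 2 listed 2601993 to 2602726 (3.00e-13, rank 12). It was the most significant peak of these stretches in each replicate list, and the nearest other series-wide peak was 10549 bp away.

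The third, IV:9052350-9053584 (2.13e-16), sat 274 bp to the left of the strongest one. Its value was 1.89e-05 in replicate 1 and 2.27e-09 in replicate 2. The fourth, IV:10252154-10253283 (3.21e-16), had 1.62e-05 in replicate 1 and 2.59e-05 in replicate 2. The fifth, IV:11593086-11593882 (5.29e-15), had 1.13e-05 in replicate 1 and 1.19e-09 in replicate 2, where it was listed at 1065 bp and ranked 22. The third and the fifth thus ranked far higher in replicate 2 than in replicate 1, where they were 214 and 189.

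The next members leaned the other way. IV:1658940-1659562 (4.75e-14) had 3.09e-07 in replicate 1 and 4.47e-05 in replicate 2. IV:17278318-17278825 (5.69e-14), the single right-tip peak found in both lists, had 1.16e-08 in replicate 1 and 2.84e-05 in replicate 2. IV:1094107-1094490 (1.15e-13) had 4.04e-08 in replicate 1 and 0.000148 in replicate 2. For IV:2388789-2389268 (1.48e-13) replicate 1 gave 3.12e-07 and replicate 2 gave 7.15e-05. All 4 had the smaller value in replicate 1, whereas the tenth member, IV:2219472-2219863 (2.71e-13), had 0.000150 in replicate 1 and 3.34e-06 in replicate 2.

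Over the 22 members in both lists the replicate 1 value was the smaller in 15 and the replicate 2 value in 7. By rank within each list, 13 stood higher in replicate 1 and 9 in replicate 2. Their median value was 2.23e-12 in the series-wide list, and 18 of them were in the first of its 10 parts. Across these 22 peaks Spearman's rho between the strengths in replicate 1 and replicate 2 was 0.27, a description across peaks. The centres of the replicate 1 and replicate 2 peaks lay a median of 42.8 bp apart, and in 17 of 22 they lay within 100 bp. In 21 of the 22 a replicate 1 peak and a replicate 2 peak also overlapped each other. The exception, chosen after its values were seen, was the weakest of the set, IV:3803558-3803761 (3.84e-05), which replicate 1 met at its left end and replicate 2 at its right end.

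**Figure D3:**
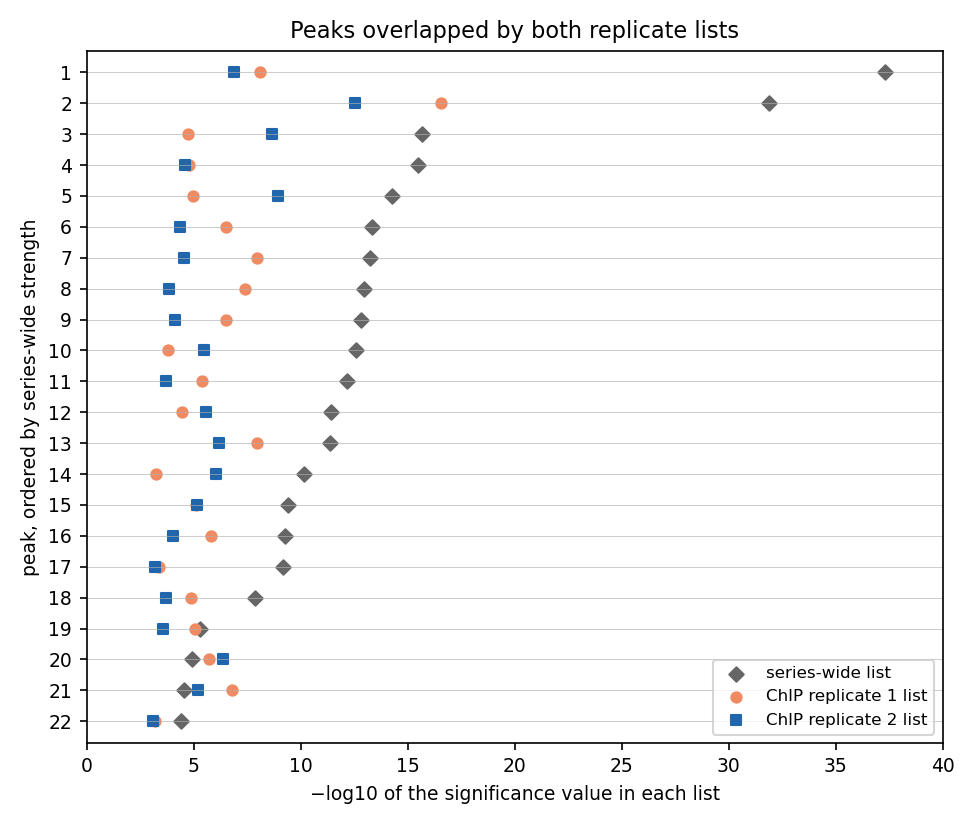
Strength (−log10 of the significance value) of the 22 members that overlap both replicate lists, in the series-wide list and in each ChIP replicate list, ordered from the strongest (1) to the weakest (22). Where a replicate list had several peaks, its most significant one is shown. For most peaks the series-wide value lies to the right of both replicate values, and at positions 20 and 21 it lies to the left of both. Nothing showed that the lists share a scale.

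Of the members with a match, 7 had a smaller value in a replicate list than in the series-wide list, and 2 had it in both replicate lists. Chosen after their values were seen, these were IV:11070897-11071283 and IV:9048084-9048470. The first had 2.96e-05 in the series-wide list (rank 1791), 1.59e-07 in replicate 1 (rank 90) and 6.07e-06 in replicate 2 (rank 100). The second had 1.16e-05 in the series-wide list (rank 1354), 1.91e-06 in replicate 1 (rank 136) and 4.05e-07 in replicate 2 (rank 52). The limits of both were almost identical in the 3 lists.

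Matched peaks were generally well aligned. Against replicate 1 the centres of the 68 matched members differed by a median of 23.8 bp, and 59 lay within 100 bp. Against replicate 2 the median was 38.0 bp and 53 of 66 lay within 100 bp. The replicate 1 peak was the wider in 7 of 68 pairs and the replicate 2 peak in 16 of 66.

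Some strong members had support from 1 replicate or from none. IV:654690-655261 had a value of 5.03e-13 and a replicate 1 peak of almost the same limits (1.63e-09, rank 37 there), with no replicate 2 peak. The widest members after the strongest one, IV:10350008-10351512 (1505 bp, 7.02e-09) and IV:9070809-9072197 (1389 bp, 4.89e-10), also overlapped replicate 1 alone. The strongest members in neither list were IV:132936-133613 (3.98e-09), IV:11635665-11636629 (6.15e-09) and IV:796468-796888 (1.55e-08), with widths of 678, 965 and 421 bp. All 3 were in the first of the 10 parts of the series-wide list.

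Seen from the replicate lists, most peaks of these stretches were also in the series-wide list: 68 of 79 in replicate 1 (86.1%, exact interval 76.5 to 92.8) and 68 of 80 in replicate 2 (85.0%, 75.3 to 92.0). Over all chromosomes these shares were 92.7% and 84.2%. A peak of the other replicate was overlapped by 22 of 79 replicate 1 peaks (27.8%, 18.3 to 39.1) and by 22 of 80 replicate 2 peaks (27.5%, 18.1 to 38.6), beside 29.0% and 29.3% over all chromosomes. In the piRNA domains these numbers were 10 of 73 (13.7%, 6.77 to 23.8) and 10 of 87 (11.5%, 5.65 to 20.1). Replicate 1 had 43 peaks on the left, 34 in the middle and 2 at the right tip, and replicate 2 had 34 on the left, 44 in the middle and 2 at the right tip. The strongest replicate peaks after the shared one at 2601939 were 654691 to 655261 and 9055523 to 9056205 in replicate 1, and 11592728 to 11593792 and 9052346 to 9053323 in replicate 2.

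The replicate peaks that overlapped no series-wide peak numbered 11 in replicate 1 and 12 in replicate 2. In replicate 1, 6 of the 11 were under 50 bp wide and 8 lay in the first 2000000 bp of the chromosome. In replicate 2 none was that narrow and 4 lay there. The 2000000 bp limit was not planned, and the same shares among all replicate peaks of these stretches were not counted. Of the 11 in replicate 1, the most significant was at 1446303 to 1446583 (7.02e-07, rank 120). The next was at 9046971 to 9047348 (5.43e-05), and replicate 2 listed the same region at 9046974 to 9047347 (8.62e-05), so that a region present in both ChIP lists was missing from the series-wide one. In replicate 2 it was followed by 9188429 to 9188619 (0.000206).

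Neighbouring members lay a median of 10842 bp apart, measured from the end of one peak to the start of the next, with a mean of 18992 bp. The median gap was 5639 bp in the piRNA domains and 9939 bp on the other chromosomes. It was 10320 bp on the left, 13710 bp in the middle and 5038 bp at the right tip. No gap was under 209 bp, and 57 of 583 (9.78%) were under 1 kb, against 14.1% in the piRNA domains and 10.6% on the other chromosomes. Of these 57 close pairs, 26 had no replicate support at either peak, 27 at 1 of them and 4 at both. The pair at 7047794 and 7048527 counts as supported at both through 1 replicate 2 peak, 7048198 to 7048672, which touched both. Taken singly, 80.9% of members and 78.0% of all series-wide peaks had no replicate support. Close pairs elsewhere were not counted in this way, so whether these pairs differ was not tested.

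Linking neighbours with a gap of at most 5 kb put 305 of the 586 peaks (52.0%) into 118 clusters, against 66.5% of the peaks in the piRNA domains and 52.8% on the other chromosomes. Most clusters were small: 76 held 2 peaks, 27 held 3, 11 held 4 and 4 held 5 or more. In the piRNA domains 16 of 116 clusters held 5 or more. Members in clusters had a median width of 186 bp, against 165 bp for single ones, and a median strength of 3.90, against 3.76. At least 1 replicate list was overlapped by 66 of 305 clustered peaks (21.6%, exact interval 17.1 to 26.7) and by 46 of 281 single peaks (16.4%, 12.2 to 21.2), beside 22.0% of all series-wide peaks.

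**Figure D4:**
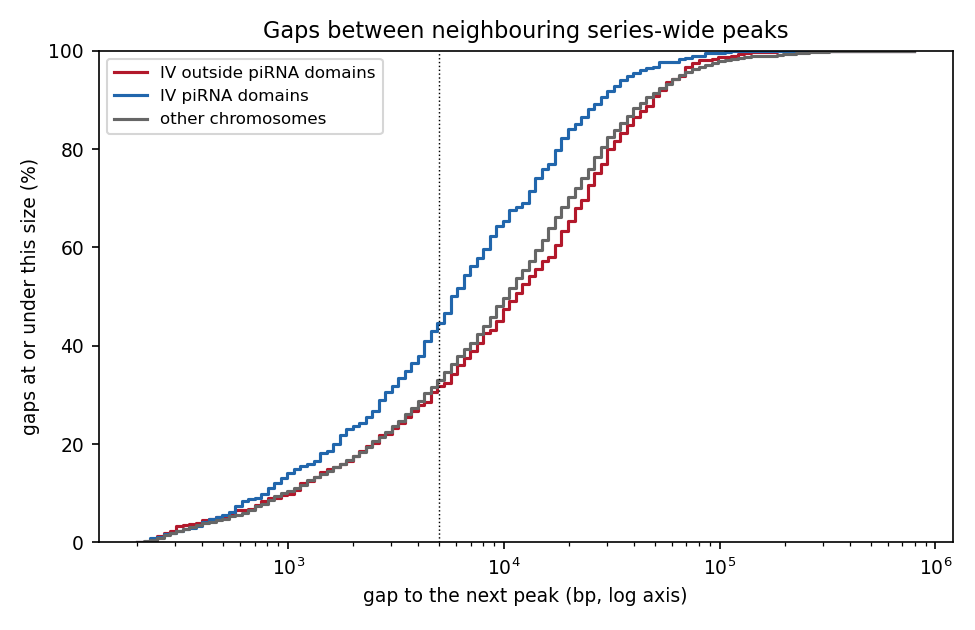
Cumulative share (%) of gaps between neighbouring series-wide peaks at or under a given size (bp, log axis), for the 586 members, the piRNA domains and the other chromosomes; the dotted line marks the 5 kb used to link peaks into clusters. The curve of the members runs close to that of the other chromosomes (32.1% and 33.3% of gaps at or under 5 kb), and that of the piRNA domains lies above both (45.5%).

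The largest cluster, in the middle stretch, held 12 peaks over 20748 bp (9062677 to 9083424), of which 5 were in a replicate list and none in both. The next, also in the middle, held 6 peaks over 9710 bp (7039445 to 7049154), 3 of them in a replicate list and none in both. A pair of clusters held 5 peaks each. The shorter one, in the middle stretch, spanned 8672 bp (9048084 to 9056755), had 4 peaks in a replicate list and 3 in both, and included the strongest member and the one 274 bp beside it. The longer one, on the left, spanned 17168 bp (3742456 to 3759623) and had 1 peak in a replicate list and none in both. The cluster of 12 lay 5921 bp from the shorter cluster of 5.

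With a gap of at most 10 kb, a setting read further after this proximity was seen, both joined with a cluster of 3 unsupported peaks to the left of them (9037562 to 9042335) into 1 group of 20 peaks over 45863 bp (9037562 to 9083424). At this setting it was the largest of 2589 groups in the series-wide list, where peaks with no neighbour that close also count as groups. The largest on the other chromosomes held 19 and the largest in the piRNA domains 16. The next largest among the members held 8. At 5 kb the members did not hold the largest cluster: theirs had 12 peaks, against 16 on chromosome II and 13 on chromosome V. Of the 20 peaks, 10 had a value under 1e-06, 9 were in the first of the 10 parts of the list, 9 overlapped a replicate peak and 3 overlapped both lists. Their median width was 386 bp. Replicate 1 listed 6 peaks in this group and replicate 2 listed 11. The right part, beyond the strongest peak, held no region that both replicates supported, while on the left the peaks at 9048084 and 9052350 and the unlisted region at 9046971 were found in each. Without the 20 peaks, the share of members in both replicate lists was 3.36% and the share in clusters 50.4%.

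**Figure D5:**
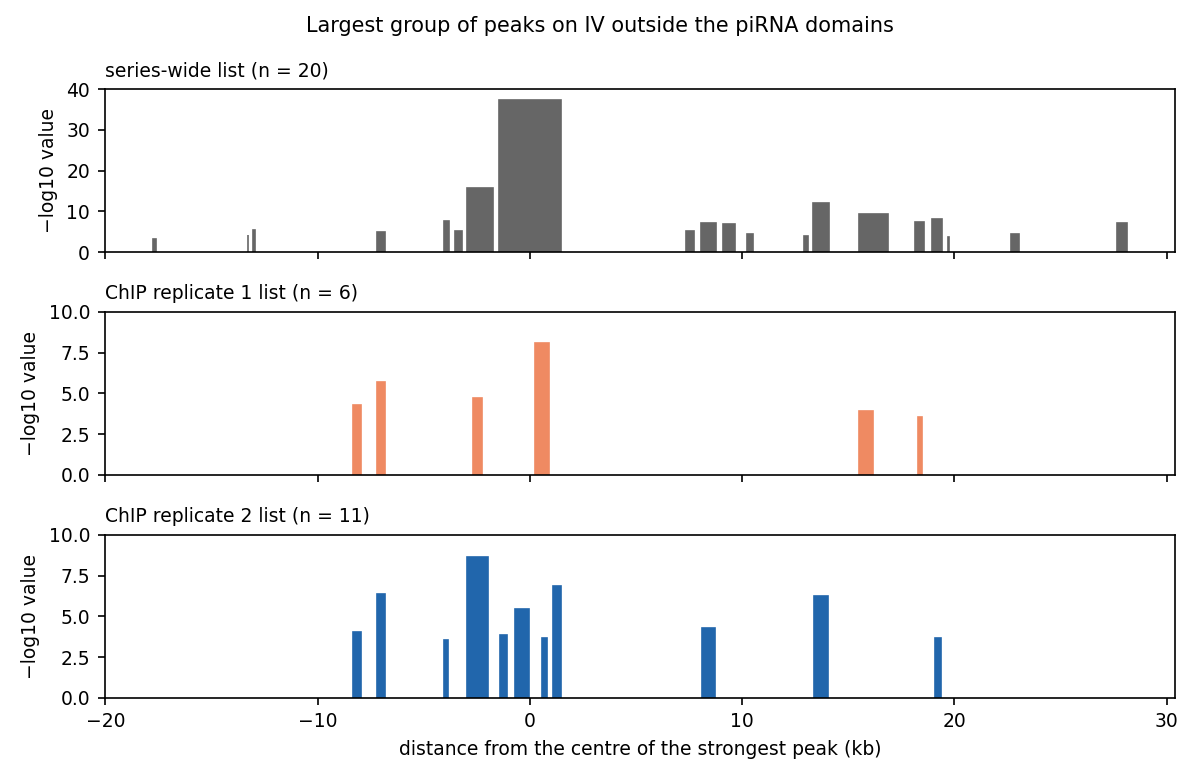
Peaks of the largest group on IV outside the piRNA domains, by distance (kb) from the centre of its strongest peak, in the series-wide list and in each ChIP replicate list; a bar spans each peak's width and its height is −log10 of that list's value, on separate scales. The 2897 bp peak at the centre is a single bar in the series-wide list and 4 bars in replicate 2, and the leftmost bar of each replicate list has no counterpart in the series-wide list.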

How the data were processed

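ChIP-seq peak lists of 2 ChIP samples and 1 series-wide list were analysed; samples were grouped by their titles. Per the file headers, peaks are on WormBase build WS220, and the source field of each line names PeakSeq, a caller that weighs ChIP reads against a control. The sources used here do not give its version, the aligner, the control or any pooling. The deposited value of each peak is a p-value or q-value; which of these was not stated.

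Overlap needed at least 1 bp. Where several replicate peaks matched, the most significant was used. Gaps were measured within a stretch, clusters linked gaps of at most 5 kb, and the end of IV was taken as the last peak end. Intervals are exact 95% intervals. No test was run, as peaks of 1 pair of libraries are not replicates. The overlap and cluster procedures were tested on simulated data and found all 100 planted overlaps and all 90 planted cluster peaks. Python 3.11.15, pandas 2.3.3 and SciPy 1.17.1 were used.

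The members and lists were chosen with earlier results of these data known. Named peaks were the 10 most significant members, overall and in both replicates (the same 10), the 3 widest, the 3 most significant in neither list, the 3 largest clusters (with the cluster tied for the last place), the peaks nearest each domain edge, and for each replicate list its 3 most significant peaks and the 2 most significant outside the series-wide list. Alternatives changed the overlap, the strength and width of members, the domain limits and the cluster gap.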

Additional observations from a re-analysis of the deposited data

How the results depend on the processing

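Requiring 50% reciprocal overlap gave 8.87% of members in replicate 1, below the interval of the 1 bp rule. Among the 293 more significant members, the share was 21.2% in replicate 1, 21.2% in replicate 2 and 7.51% in both, and 36.5% lay in clusters. Fewer peaks over the same length leave wider gaps, so this lower share in clusters does not show that stronger members clustered less. Leaving out a replicate gave 11.3% to 11.6% in place of the share in both, since only 1 list is then required. Clustered members were 30.4% with a gap of at most 2 kb and 71.0% with 10 kb. Members of at least 50 bp had a median width of 196 bp. The left stretch held 43.7% of members and 54.4% of the replicate 1 peaks. In the other 26 of 37 alternatives, among them domains widened by 500 kb and members without the largest group (chosen after seeing the data), the value stayed inside the 95% interval of the reported one. The lists give no depth, and a missing overlap is no evidence that NHR-28 was absent from a region.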
